A study of Apeltes quadracus with 21 samples.

Results

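The *HOXDA* cluster was described in spines and fins of *Apeltes quadracus*, the fourspine stickleback. Its genes were taken from the deposited count table as every gene model named *HOXD*, a group number other than 2, and A. This gave 6 genes, *HOXD3A*, *HOXD4A*, *HOXD9A*, *HOXD10A*, *HOXD11A* and *HOXD12A*, out of 47 gene models named as *Hox* genes and 31532 gene models in all. The RNA came from 3 fry of the Louisbourg population, with 7 tissues dissected from every fry at the fin fold stage (stage 31). All fry had 4 dorsal spines and were L/L at *HOXDB*, the second *HoxD* cluster of these fish, where L is the haplotype that the study links to low spine number. The tissues were dorsal spines 1, 2 and 3 from the front (DS1, DS2, DS3), the blank pterygiophore (Pter), which is an internal fin support bearing no spine, the spine farthest back (DSL), and the dorsal (DF) and anal (AF) fins. The fry were raised in the laboratory, and each replicate number stands for 1 fish. The sources used here do not say whether the 3 fish were siblings.

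*Hox* genes encode homeodomain transcription factors that stand side by side in clusters. Their order in a cluster follows the order of their expression domains along the body, with low group numbers active from the head backwards and high group numbers restricted to posterior regions. Ray-finned fish of the teleost group had their clusters duplicated, so that *HOXDA* and *HOXDB* both descend from an ancestral *HoxD* cluster. In mice, *Hoxd3* and *Hoxd4* are known for patterning the neck vertebrae, and *Hoxd9* to *Hoxd12* for patterning the posterior trunk and the limbs.

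The 6 gene models occupied 37.5 kb of chromosome 16 in the assembly made by the authors, all on the minus strand, and they ran in the order of their group numbers. *HOXD3A* lay at 9074187 to 9078154, *HOXD4A* at 9083481 to 9092730 and *HOXD9A* at 9096353 to 9098220. *HOXD10A* lay at 9099741 to 9101818, *HOXD11A* at 9102274 to 9106414 and *HOXD12A* at 9109733 to 9111713. *HOXD10A* shared 794 bp of exon with a gene model on the plus strand, STRG.21006, and no exon of the other 5 genes overlapped another model. The sources used here give no strand setting for the counting, so the *HOXD10A* values are less certain than the others.

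Libraries held 26357373 to 34564481 counts, and all 6 genes were among the 21134 gene models that passed the filter on low counts. *HOXD12A* passed through the fins alone, since its highest count outside them was 6 reads. Levels are given in CPM (counts scaled to library size), with TMM factors, with the SD over 3 fish. On the first principal component of all tested genes, which held 25.7% of the variance, the 7 libraries of replicate 3 lay apart from the other 14, so results that depend on that fish are given without it. The tissues were not checked against cell type markers, because 31485 gene models have no gene name. In whole tissues, a change in the number of expressing cells and a change in RNA per cell cannot be told apart.

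All 6 genes differed among the 7 tissues in edgeR's quasi-likelihood F test with Benjamini-Hochberg adjustment, against 20.2% of all genes tested. Adjusted p ran from 8.9e-10 for *HOXD12A* to 0.00258 for *HOXD3A*. The fin reads of *HOXD12A* alone brought it past the filter on low counts, so its call is not separate from that filter. With fish as a term in the model all 6 passed, as did 10374 of the 21134 genes tested. Without replicate 1, 2 or 3, 5 of the 6 genes passed. The share of all genes passing in those fits is not given here, so these counts stand without a background. The gene lost was *HOXD3A* without replicate 1 or 2, and *HOXD9A* without replicate 3.

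**Figure D1:**
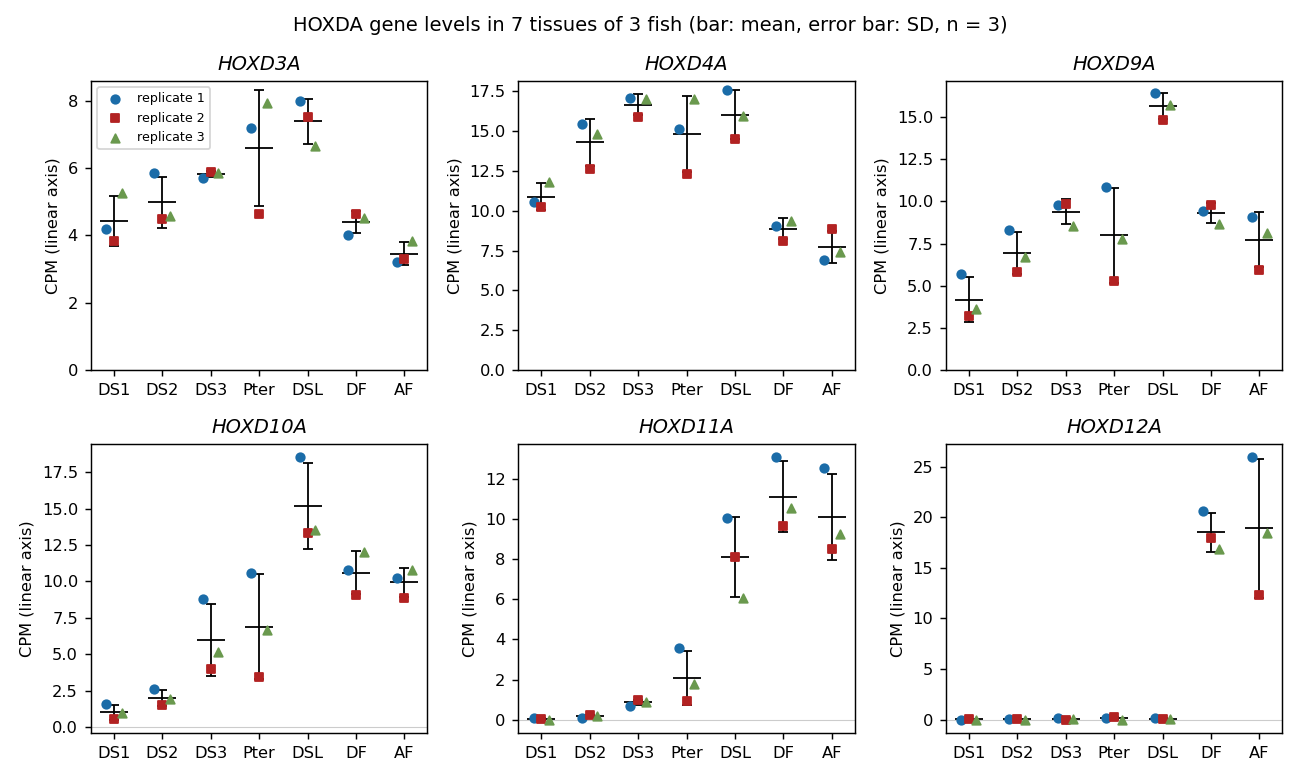
CPM of the 6 *HOXDA* genes (vertical axes, linear) in the 7 tissues (horizontal axes), with one symbol per fish, the mean as a horizontal bar and the SD as an error bar (n = 3). *HOXD3A* and *HOXD4A* stayed within 3.23 to 7.98 and 6.93 to 17.6 CPM, whereas *HOXD12A* was at 0 to 0.247 CPM outside the fins and at 12.3 to 26.0 CPM within them.

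*HOXD3A* and *HOXD4A*, the group 3 and group 4 genes, were found in every library. *HOXD3A* ranged from 97 to 234 reads per library. Its mean was 4.43 ± 0.744 CPM in DS1, 4.98 ± 0.765 in DS2, 5.81 ± 0.0900 in DS3, 6.60 ± 1.73 in Pter and 7.39 ± 0.670 in DSL, and it was lower in DF (4.39 ± 0.325) and AF (3.46 ± 0.340). In order of level, from AF up through DF, DS1, DS2, DS3 and Pter to DSL, the lowest pair did not overlap and each later pair of neighbours overlapped. DSL nonetheless lay wholly above DS1, DS2, DS3 and both fins. *HOXD4A* ranged from 244 to 546 reads, with means of 10.9 ± 0.827 CPM in DS1, 14.3 ± 1.47 in DS2, 16.7 ± 0.681 in DS3, 14.8 ± 2.38 in Pter, 16 ± 1.54 in DSL, 8.86 ± 0.659 in DF and 7.73 ± 1.01 in AF. The fins and DS1 did not overlap for *HOXD4A*, nor did DS1 and DS2, and from DS2 up through Pter and DSL to DS3 each neighbour in the order overlapped the next, although DS2 lay wholly below DS3.

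*HOXD9A*, the first group 9 to 12 gene of the cluster, rose along the spines without being absent from any. It stood at 5.69, 3.20 and 3.64 CPM in DS1 and at 8.28, 5.84 and 6.70 CPM in DS2 (replicates 1, 2 and 3). In DS3 it was at 9.79, 9.82 and 8.52 CPM, and in DSL at 16.4, 14.8 and 15.7 CPM. The level went up at every step from DS1 through DS2 and DS3 to DSL in 3 of 3 fish, and DSL stood clear of every other tissue. Pter spread from 5.31 CPM in replicate 2 to 7.76 in replicate 3 and 10.9 in replicate 1. DF held 9.41, 9.80 and 8.65 CPM, and AF 9.09, 5.95 and 8.15 CPM. In order of level, DS1 was separate from DS2 above it and DSL from DS3 below it, and the neighbours in between overlapped, although DS2 lay wholly below DF and DS3.

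*HOXD10A* had the same order along the spines from a lower start. DS1 held 1.55, 0.548 and 0.937 CPM and DS2 2.60, 1.5 and 1.96 CPM. DS3 held 8.79, 3.99 and 5.16 CPM and DSL 18.5, 13.3 and 13.6 CPM. Each step was upward in 3 of 3 fish, with replicate 1 the highest fish in all 4 spines. Pter ranged from 3.42 CPM in replicate 2 to 10.6 in replicate 1, with replicate 3 at 6.65. DF stood at 10.7, 9.05 and 12 CPM and AF at 10.2, 8.84 and 10.8 CPM. DS1 and DS2 overlapped, DS3 lay above both, and DSL lay above both fins.

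*HOXD11A*, a group 11 gene, was close to absent in the 2 anterior spines. DS1 had 3, 2 and 0 reads and DS2 had 2, 6 and 7 reads, which is at most 0.237 CPM. DS3 had 19, 23 and 27 reads, or 0.705, 0.986 and 0.898 CPM. Pter was at 3.58, 0.947 and 1.77 CPM and DSL at 10.1, 8.11 and 6.08 CPM. The fins held as much as DSL or more, with 13.1, 9.65 and 10.6 CPM in DF and 12.5, 8.50 and 9.27 CPM in AF. In order of level, DS1 and DS2 overlapped, DS3 and Pter overlapped, and DSL overlapped both fins, while DS2 was separate from DS3 and Pter from DSL.

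*HOXD12A*, the highest group number in the cluster, was found almost wholly in the fins. The 12 spine libraries held 19 of its reads in all, with 4 libraries at 0 and none above 5 reads. Pter held 4, 6 and 0 reads. By contrast DF held 724, 598 and 616 reads (20.6, 18.0 and 16.9 CPM), and AF held 1022, 361 and 610 reads (26.0, 12.3 and 18.5 CPM). Every fin library therefore stood far above every spine and Pter library, and DF and AF overlapped. A library with 0 reads allows up to 3 reads, which is 0.0833 to 0.133 CPM in the 5 libraries without a read.

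The cluster as a whole changed in amount and in make-up along this series. Dividing CPM by exon length allows genes to be compared, and on that scale the 6 genes summed to 8.53 ± 1.38 CPM per kb in DS1, 12.4 ± 1.94 in DS2, 18.2 ± 2.04 in DS3 and 31.7 ± 3.64 in DSL. Pter was at 18.0 ± 5.83, DF at 33.0 ± 1.79 and AF at 30.7 ± 6.20 CPM per kb. In DSL, *HOXD9A* made up 36.5 ± 2.62% of the sum, *HOXD10A* 33.0 ± 2.51%, *HOXD11A* 7.04 ± 1.18% and *HOXD12A* 0.186 ± 0.119%. In DF, *HOXD12A* made up 34.9 ± 2.32%, *HOXD10A* 22.4 ± 2.97%, *HOXD9A* 20.7 ± 1.87% and *HOXD11A* 9.32 ± 0.973%. In AF, *HOXD12A* made up 37.5 ± 6.32%, *HOXD10A* 22.9 ± 3.11%, *HOXD9A* 18.5 ± 0.647% and *HOXD11A* 9.17 ± 0.785%. *HOXD3A* and *HOXD4A* together with *HOXD9A* formed most of the sum in DS1, at 22.5 ± 3.93%, 33.8 ± 5.12% and 35.5 ± 6.15%. The share of *HOXD4A* was 13.2 ± 0.684% in DSL and 7.01 ± 0.452% in DF, and shares were not tested. The models may differ in how much untranslated sequence they include, which enters these lengths.

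**Figure D2:**
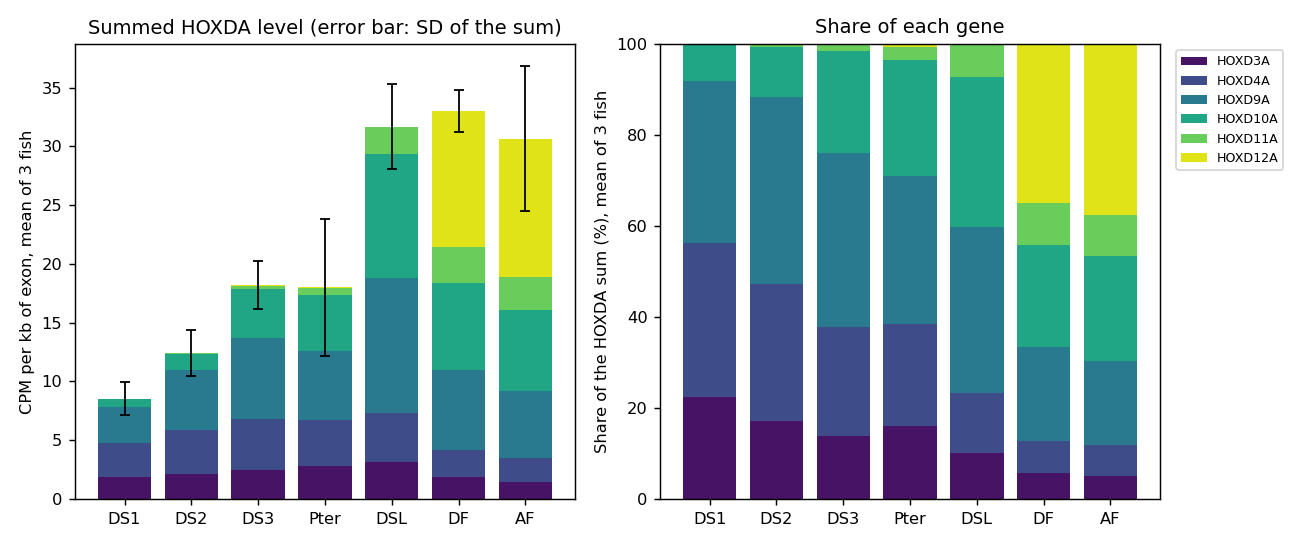
Left, the summed level of the 6 *HOXDA* genes in CPM per kb of exon (vertical axis) by tissue, stacked by gene, with the SD of the sum over 3 fish as the error bar. Right, the mean share of each gene in that sum in percent, where the *HOXD12A* share is 34.9% in DF and 37.5% in AF and below 1% in the other tissues.

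The first question was how the cluster differs between the first and the last spine of a fish. *HOXD9A*, *HOXD10A* and *HOXD11A* were higher in DSL than in DS1, and none of the 6 genes was lower. On the log2 scale the differences were 1.90 ± 0.240 for *HOXD9A* (approximate SE, adjusted p 0.000444), 3.89 ± 0.413 for *HOXD10A* (adjusted p 4.98e-05) and 7.21 ± 0.560 for *HOXD11A* (adjusted p 8.42e-07), each in 3 of 3 fish. These are 3.74-fold, 14.8-fold and 148-fold. *HOXD11A* had only 5 reads in DS1, and its pooled reads gave a ratio of 157 (95% counting interval 66.8 to 484). The 3 genes called of 6 stand against 0.208% of all genes tested. The median log2 difference of the 6 genes was 2.36, and that of all genes tested was -0.018.

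The smaller differences of the group 3 and 4 genes depended on the model. The main fit has tissue as its only term and leaves out that the same 3 fish gave every tissue. *HOXD3A* differed by 0.74 ± 0.180 (adjusted p 0.138) and *HOXD4A* by 0.56 ± 0.131 (adjusted p 0.121), each higher in DSL in 3 of 3 fish. With fish as a term in the model, both passed, with adjusted p 0.0204 and 0.0109, and 5 of the 6 genes were called against 1.45% of all genes. Both also passed in DESeq2 (adjusted p 0.0135 and 0.00928, where 0.719% of all genes were called). Over its 16 alternatives adjusted p ran from 0.0135 to 1 for *HOXD3A* and from 0.00928 to 1 for *HOXD4A*. Without replicate 3, *HOXD9A* (log2 difference 1.81, adjusted p 0.159) and *HOXD10A* (3.91, adjusted p 0.0595) were not called, and *HOXD11A* was the 1 gene left. That fit had no term for fish and called 0.0758% of all genes. *HOXD12A* had 9 reads in DSL and 1 in DS1, a ratio of 9.46 (95% interval 1.31 to 415), and it did not pass (adjusted p 1).

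Taking the 2 posterior spines (DS3 and DSL) against the 2 anterior spines (DS1 and DS2) called the same 3 genes, against 0.0899% of all genes. *HOXD9A* was higher by 1.17 ± 0.167 (adjusted p 0.00282), *HOXD10A* by 2.73 ± 0.280 (adjusted p 3.7e-05) and *HOXD11A* by 4.77 ± 0.383 (adjusted p 1.44e-06), each in 3 of 3 fish. With fish in the model *HOXD3A* (log2 difference 0.49, adjusted p 0.0467) and *HOXD4A* (0.39, adjusted p 0.0164) joined them, against 1.11% of all genes. In the main fit their adjusted p were 0.294 and 0.179, and over 22 alternatives they ran from 0.0467 to 1 and from 0.0164 to 1. *HOXD4A* also passed in DESeq2 (adjusted p 0.0199, where 0.53% of all genes were called). The call for *HOXD9A* was lost without replicate 2 (adjusted p 0.0956) or replicate 3 (0.264), and that for *HOXD10A* without replicate 3 (0.0537).

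Neighbouring spines were compared next. Between DS1 and DS2, 0 of the 6 genes passed in edgeR, DESeq2 or limma-voom, against 0.00473% of all genes in edgeR, and 4 of the 6 had an unadjusted p under 0.05. The log2 differences ran from 0.17 ± 0.181 for *HOXD3A* to 1.67 ± 0.768 for *HOXD11A*, which counts 5 reads in DS1 and 15 in DS2.

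Between DS2 and DS3, 0 of the 6 passed in edgeR (0.0142% of all genes), with 2 under an unadjusted p of 0.05. *HOXD10A* was higher in DS3 by 1.56 ± 0.382 (adjusted p 1) and *HOXD11A* by 2.32 ± 0.517 (adjusted p 0.65), each in 3 of 3 fish. *HOXD10A* passed with fish in the model (adjusted p 0.0127, where 0.0189% of all genes were called), and its adjusted p ran from 0.0127 to 1 over 16 alternatives. *HOXD11A* passed in DESeq2 (adjusted p 0.0364, where 0.0332% of all genes were called), with a range of 0.0364 to 1. limma-voom called 0 of the 6.

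Between DS3 and DSL, *HOXD11A* passed, with 69 reads in DS3 and 745 in DSL and a log2 difference of 3.22 ± 0.403 (9.34-fold, adjusted p 0.00118), against 0.0804% of all genes. It was higher in 3 of 3 fish, but with 2 fish the call was lost whichever fish was left out (adjusted p 0.0947, 0.131 and 0.0984 without replicates 1, 2 and 3). These fits had tissue as their only term, and the log2 difference in them was 2.91 to 3.43. Of all genes tested they called 2, 1 and 7, where the main fit called 17. *HOXD10A* was higher by 1.34 ± 0.361 (adjusted p 0.18) and *HOXD9A* by 0.74 ± 0.231 (adjusted p 0.243), and both passed with fish in the model (adjusted p 0.000695 and 0.0102, where 7.04% of all genes were called). *HOXD10A* also passed in DESeq2 (adjusted p 0.0231, where 1.25% of all genes were called). Over 16 alternatives adjusted p ran from 0.000695 to 0.757 for *HOXD10A* and from 0.0102 to 0.815 for *HOXD9A*. *HOXD4A* differed by -0.057 ± 0.130 between these spines.

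**Figure D3:**
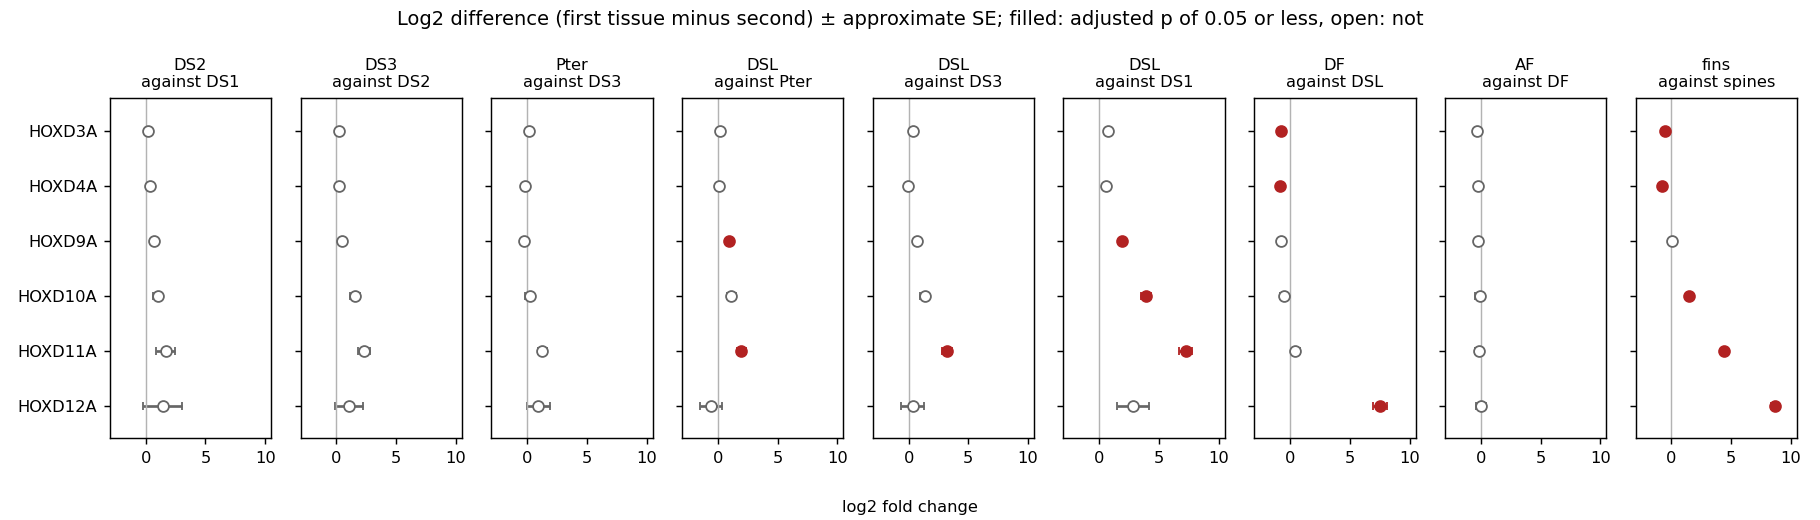
Log2 difference with its approximate SE (horizontal axes) for the 6 *HOXDA* genes (rows) in 9 comparisons, filled where the adjusted p was 0.05 or less. *HOXD11A* reaches 7.21 between DSL and DS1, and *HOXD12A* reaches 7.52 between DF and DSL and 8.68 between fins and spines.

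Pter, the spineless bone, was set against DS3 and DSL to compare it with spine-bearing positions. Against DS3, 0 of the 6 genes passed in edgeR or limma-voom, against 3.11% of all genes in edgeR, and 1 had an unadjusted p under 0.05. That gene was *HOXD11A*, higher in Pter by 1.27 ± 0.406 (adjusted p 0.107) in 2 of 3 fish. It passed with fish in the model (adjusted p 0.0166, where 14.9% of all genes were called), in DESeq2 (0.0242, where 5.1% were called) and without Pter replicate 2 (0.0354), and its adjusted p ran from 0.0166 to 0.75 over 16 alternatives. Leaving out 1 fish or library moved the log2 difference from 0.55 to 1.74. *HOXD3A*, *HOXD4A*, *HOXD9A* and *HOXD10A* differed from DS3 by -0.23 to 0.20.

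Against Pter, *HOXD9A* was higher in DSL by 0.97 ± 0.234 (adjusted p 0.0134) and *HOXD11A* by 1.95 ± 0.375 (adjusted p 0.00298), each in 3 of 3 fish, and these 2 calls of 6 compare with 9.74% of all genes. *HOXD10A* was higher by 1.14 ± 0.360 without passing (adjusted p 0.0539), and passed with fish in the model (0.000215, where 26.7% of all genes were called), with a range of 0.000215 to 0.24 over 16 alternatives. It also passed in DESeq2 (0.0213, 13.3% of all genes), limma-voom (0.0152, 8.95%) and with a filter of 1 CPM in 6 libraries (0.0479, 11.9%). Leaving out replicate 1 (0.0440, 4.45%) or Pter replicate 1 (0.0142, 10.8%) gave a call too. In the other 10 alternatives *HOXD10A* was not called. Without replicate 2 neither *HOXD9A* (adjusted p 0.145) nor *HOXD11A* (0.133) was called. *HOXD9A* was also lost without replicate 3 (0.125), without Pter replicate 2 (0.0864) and with DSL and Pter fitted alone (0.0661). Among the Pter libraries replicate 1 was the highest and replicate 2 the lowest for *HOXD9A*, *HOXD10A* and *HOXD11A*, and the TMM factors of Pter were 0.773 to 0.797. With RLE in place of TMM factors, edgeR called the same 2 genes, *HOXD9A* and *HOXD11A*, where 9.98% of all genes were called.

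The step from the last spine to the dorsal fin behind it divided the cluster. *HOXD12A* was higher in DF by 7.52 ± 0.600 (adjusted p 1.2e-06), with 1938 pooled reads against 9, a ratio of 192 (95% interval 101 to 421). It passed the filter on low counts through the fins alone, so this call is not separate from that filter. *HOXD3A* was lower in DF, with a log2 difference of -0.75 ± 0.180 (adjusted p 0.0151), and *HOXD4A* of -0.85 ± 0.132 (adjusted p 0.000638), each in 3 of 3 fish. The 3 genes called of 6 compare with 7.51% of all genes. *HOXD9A* differed by -0.75 ± 0.231 (adjusted p 0.0546), which passed with fish in the model (0.00161, where 20.8% of all genes were called) and ranged from 0.00161 to 0.287 over 16 alternatives. *HOXD10A* (-0.51 ± 0.352, adjusted p 0.501) and *HOXD11A* (0.46 ± 0.348, adjusted p 0.561) did not pass. *HOXD3A* was lost without replicate 1 (adjusted p 0.324), replicate 2 (0.0981), DSL replicate 1 (0.0776) or DF replicate 1 (0.0728), and *HOXD4A* without replicate 1 (0.072).

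Both fins were then taken against all 4 spines. *HOXD10A*, *HOXD11A* and *HOXD12A* were higher in the fins, *HOXD3A* and *HOXD4A* were lower, and *HOXD9A* did not pass. *HOXD12A* was higher by 8.68 ± 0.35 (adjusted p 1.61e-11), with 3931 pooled reads in the fins and 19 in the spines, a ratio of 361 (95% interval 231 to 601). Its fin reads alone brought it past the filter on low counts, so this call is not separate from that filter. *HOXD11A* was higher by 4.39 ± 0.248 (adjusted p 9.67e-10) and *HOXD10A* by 1.47 ± 0.215 (adjusted p 5.66e-05). *HOXD3A* differed by -0.51 ± 0.113 (adjusted p 0.00232) and *HOXD4A* by -0.79 ± 0.0832 (adjusted p 1.93e-06), and all 5 differences held in 3 of 3 fish. The fitted difference weighs the 4 spines equally on the log2 scale, and *HOXD10A* and *HOXD11A* were low in DS1 and DS2. Pooled reads gave smaller ratios of fins to spines, 4.64 (95% interval 4.28 to 5.03) for *HOXD11A* against a fitted 20.9-fold, and 1.72 (1.62 to 1.83) for *HOXD10A* against a fitted 2.78-fold. In DSL *HOXD10A* lay above both fins, and *HOXD11A* overlapped both fins. The call for *HOXD3A* was lost without replicate 1 (adjusted p 0.0862). The 5 genes called of 6 compare with 29.4% of all genes, and *HOXD9A* differed by 0.069 ± 0.142.

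DF and AF were compared to ask whether a fin on the back differs from one on the belly. In edgeR, DESeq2 and limma-voom 0 of the 6 genes passed, 0 had an unadjusted p under 0.05 in edgeR, and 0.218% of all genes were called there. Log2 differences, AF minus DF, ran from -0.34 ± 0.182 for *HOXD3A* to 0.033 ± 0.388 for *HOXD12A*. In AF, *HOXD12A* stood at 26.0 CPM in replicate 1 and 12.3 CPM in replicate 2.

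Set against position, the differences changed with distance along the cluster. From *HOXD3A* to *HOXD12A* the fin to spine differences were -0.51, -0.79, 0.069, 1.47, 4.39 and 8.68, and those of DF against DSL were -0.75, -0.85, -0.75, -0.51, 0.46 and 7.52. Those of DSL against DS1 were 0.74, 0.56, 1.90, 3.89, 7.21 and, for *HOXD12A* with its 9 and 1 reads, 2.82. All of these comparisons use the DSL libraries. Fins against spines also shares DS1 with DSL against DS1, and DF with DF against DSL. The genes of a cluster are not independent of each other either, so the order is given as a description. *HOXD11A*, highest in DSL and the fins and lower in Pter and DS3, and *HOXD12A*, found almost wholly in the fins, have gene models 3318 bp apart.

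**Figure D4:**
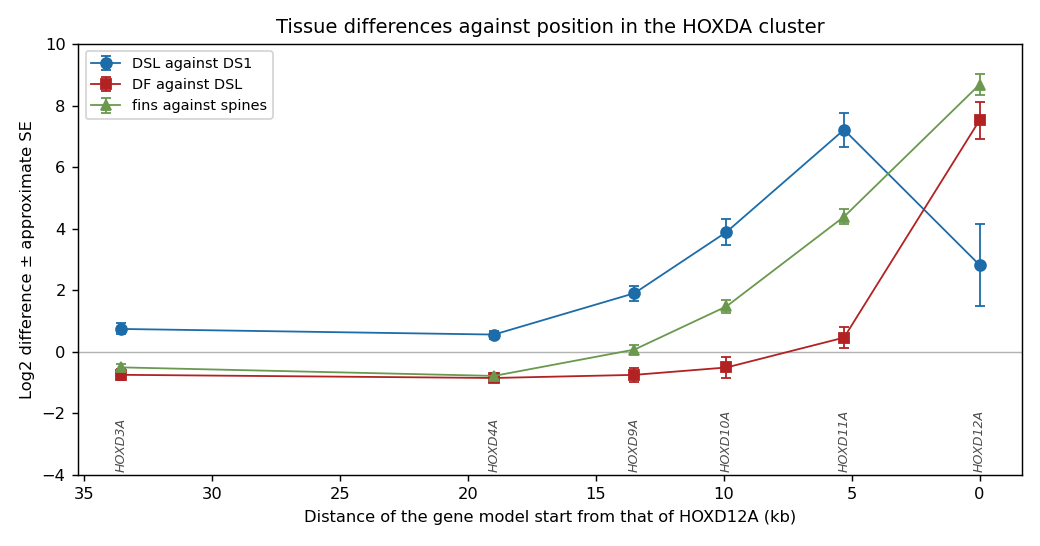
Log2 difference with its approximate SE (vertical axis) of each *HOXDA* gene against the distance of its start from that of *HOXD12A* in kb (horizontal axis, cluster order from left to right), for DSL against DS1, DF against DSL and fins against spines. The *HOXD12A* point for DSL against DS1 rests on 9 and 1 reads.

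Over the 21 libraries, log2 CPM of neighbouring genes correlated at r = 0.84 for *HOXD3A* and *HOXD4A*, 0.31 for *HOXD4A* and *HOXD9A*, 0.85 for *HOXD9A* and *HOXD10A*, 0.92 for *HOXD10A* and *HOXD11A*, and 0.72 for *HOXD11A* and *HOXD12A*. The pair *HOXD4A* and *HOXD12A* was at -0.81. These values describe tissue patterns, since libraries of 1 tissue or 1 fish are not independent. Among all tested genes the nearest to *HOXD12A* were *HOXC12A* (r = 0.98), *HOXA13A* (0.97) and *HOXA13B* (0.97). *HOXD12A* had at most 6 reads in any library outside the fins, so these values rest mainly on fins against other tissues. The nearest to *HOXD11A* were *HOXA10B* (0.94), *HOXC11A* (0.93) and *HOXA11B* (0.93), and the nearest to *HOXD10A* were *HOXC10A* (0.95), *HOXD11B* (0.92) and *HOXD11A* (0.92). *HOXD9A* was nearest to *HOXD10A* (0.85), *HOXD11B* (0.83) and *HOXD9B* (0.81). Of the 20 nearest gene models, 9 were *Hox* genes for *HOXD10A*, 6 for *HOXD9A* and for *HOXD11A*, and 3 for *HOXD12A*. Among all 21134 gene models tested, 38 were *Hox* genes. *HOXD3A* and *HOXD4A* had 1 and 2 *Hox* genes among their 20. *HOXD3A* was nearest to *HOXD4A* (0.84), STRG.2623 (0.82) and STRG.13445 (0.81), and *HOXD4A* to STRG.3607 (0.89), STRG.8687 (0.88) and STRG.13505 (0.88).

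The *HOXDA* genes were compared with their counterparts in *HOXDB*, which arose from the same ancestral genes. The ratio of reads within a library removes library size, and its change between posterior and anterior spines was tested by an exact permutation of tissue labels within fish (216 arrangements, smallest possible p 0.00926, two-sided, 4 ratios). The log2 ratio of *HOXD9A* to *HOXD9B* was 5.88, 7.80 and 7.67 in DS1, 1.81, 1.87 and 2.84 in DS2, -1.38, -1.20 and -1.33 in DS3 and -1.75, -1.64 and -1.53 in DSL. *HOXD9B* had 3, 0 and 0 reads in DS1, so the ratios there are set largely by the 0.5 reads added to each count. *HOXD9A* supplied nearly all group 9 reads of the 2 clusters in DS1, 417 against 3, and the smaller part in DSL, 1463 against 4555. The posterior minus anterior difference of the log2 ratio was -6.12 ± 0.649 (SD over 3 fish) with an exact permutation p 0.00926 (adjusted p 0.0123), in 3 of 3 fish. That of *HOXD4A* to *HOXD4B* was -1.63 ± 0.272, with the same exact permutation p and adjusted p in 3 of 3 fish, with 1065 against 229 reads in DS1 and 1495 against 1231 in DSL.

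The group 11 pair was described in the same way. *HOXD11A* and *HOXD11B* both had 5 reads in DS1, so the ratio there is set by few reads. *HOXD11B* then led in DS3 with 902 reads against 69, in Pter with 1103 against 141 and in DSL with 2914 against 745. In the fins the order turned, with 1166 reads of *HOXD11A* against 837 of *HOXD11B* in DF and 1049 against 683 in AF, and a log2 ratio above 0 in 6 of 6 fin libraries. From DSL to the fins the mean log2 ratio also rose for *HOXD9A* to *HOXD9B* (-1.64 in DSL, -0.79 in DF, -0.85 in AF) and *HOXD4A* to *HOXD4B* (0.28, 0.51, 0.53). Read ratios take no account of exon length. In CPM per kb of exon, *HOXD9A* was below *HOXD9B* in DSL (11.5 against 16.8), and above it in DF (6.82 against 5.50) and AF (5.68 against 4.72). For the group 11 pair the change between posterior and anterior spines was -2.16 ± 1.16 (exact permutation p 0.0278, adjusted p 0.0278, 3 of 3 fish), and the turns in the fins were not tested. The mean log2 ratio of this pair was 0.12 in DS1, -1.45 in DS2 (15 against 41 reads), -3.67 in DS3 and -1.97 in DSL. It therefore did not fall steadily, and DSL was nearer to DS2 than to DS3. Within *HOXDA*, the log2 ratio of *HOXD11A* to *HOXD9A* was higher in the posterior spines by 3.64 ± 0.627 (exact permutation p 0.00926, adjusted p 0.0123, 3 of 3 fish). Its mean was -6.34 ± 1.16 in DS1, -0.98 ± 0.344 in DSL and 0.25 ± 0.251 in DF. With 5 reads of *HOXD11A* in DS1 and 15 in DS2, the anterior values rest on few reads and on the 0.5 reads added. Adding 1 read in its place gave a change of 3.34. Per kb of exon the order in DF was the reverse, with *HOXD11A* at 3.08 and *HOXD9A* at 6.82 CPM.

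**Figure D5:**
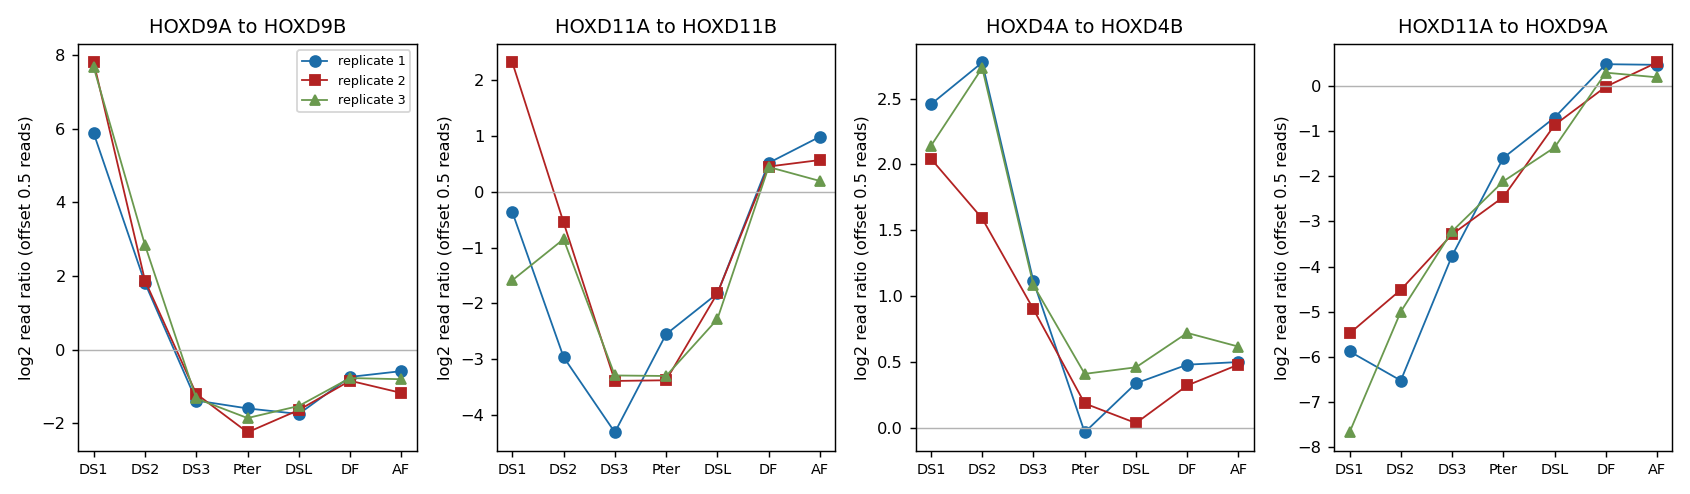
Log2 ratio of the reads of 2 genes in the same library (vertical axes, 0.5 reads added to each) by tissue, one line per fish. *HOXD9A* to *HOXD9B* falls from 5.88 to 7.80 in DS1 to below 0 in DS3 and DSL, and *HOXD11A* to *HOXD9A* climbs to 0.25 in DF (mean of 3 fish). Reads were not divided by exon length, so the sign of a ratio does not rank the 2 genes.

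The other *Hox* genes gave the setting. Between DSL and DS1, 3 of 3 tested *HOXDB* genes, 2 of 4 *HOXC* genes of groups 9 to 13 and 3 of 8 *HOXA* genes of groups 9 to 13 were higher and none of these was lower, while among 17 other tested *Hox* genes 0 were higher and 5 lower. Of all 21134 genes tested, 0.208% were called there, 36 higher and 8 lower. In the fitted fins against spines difference, 2 of 3 *HOXDB*, 3 of 4 *HOXC* and 6 of 8 *HOXA* genes of those groups were higher, 0, 1 and 1 were lower, and among the 17 others 1 was higher and 15 lower. In that comparison 29.4% of all genes tested were called, 3566 higher and 2642 lower. The fit weighs the 4 spines equally on the log2 scale, so a gene low in DS1 and DS2 can be called higher without exceeding DSL. In DF against DSL, 2 of 4 *HOXC* and 4 of 8 *HOXA* genes of those groups were higher and 0 were lower. Among the 17 others 1 was higher and 10 lower, and 7.51% of all genes were called. With fish as a term, where 20.8% of all genes were called, 2 *HOXC* and 5 *HOXA* genes were higher and 1 of each was lower. *HOXD9B* and *HOXD11B* had 3 and 5 reads in DS1, and their mean CPM was lower in the fins (14.9 and 7.33) than in the spines (18.4 and 10.8), and all 3 *HOXDB* genes were lower in DF than in DSL (log2 differences -1.61 for *HOXD9B*, -1.97 for *HOXD11B* and -1.09 for *HOXD4B*, edgeR adjusted p 0.000343, 0.000333 and 0.00314). *HOXD3A* and *HOXD4A* shared the direction of the 15 lower genes in the fins. Median fitted log2 differences of fins against spines were 0.77 for *HOXDA*, 2.07 for *HOXDB* (the value of *HOXD11B*, with the limit just given), 5.82 for the *HOXC* genes, 2.86 for the *HOXA* genes, -1.77 for the others and -0.021 for all genes tested.

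STRG.21006, on the strand opposite *HOXD10A*, also varied among tissues, from 25 pooled reads in DS1 to 102 in DSL and 139 in DF, against 101, 1403 and 1117 for *HOXD10A*. It was higher in DSL than in DS1 by 2.07 ± 0.471 (adjusted p 0.104) and in fins than in spines by 1.24 ± 0.263 (adjusted p 0.00163). In Pter its order over fish was not that of *HOXD10A*, with 35 reads in replicate 2 and 10 in each of the other fish. Its part in the *HOXD10A* results was not tested.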

How the data were processed

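Illumina stranded mRNA libraries of 7 tissues from 3 fish were used, 21 in all. The deposited values are raw read counts per gene model, whole numbers made by the authors and not normalized. Reads were trimmed (cutadapt 2.4), mapped with STAR and counted with featureCounts (Subread 2.0.1) per the labels. The gene models were built with StringTie on the assembly made by the authors, and the *Hox* genes were named by BLAST. Exon lengths are the deposited ones. The table held 85 further columns of other samples, which were not used.

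Gene models were filtered with filterByExpr, which set aside 0.0403% of counts, scaled by TMM and fitted in edgeR 4.0.16 (R 4.3.3; quasi-likelihood F test), with tissue as the only term, all 21 libraries in 1 fit, two-sided contrasts and Benjamini-Hochberg adjustment over 21134 genes at 0.05. Log2 CPM used a prior count of 2. The approximate SE is the difference divided by the root of F. Ratios of pooled reads have exact 95% binomial intervals, which cover counting error only. The 3 libraries of a tissue come from 3 fish, and the same fish gave all 7 tissues. The correlation of residuals between tissues of 1 fish was at least 0.52 (median 0.62, 63 pairs), so the numbers pair the samples. Fish was an alternative term, so the main fit leaves this pairing out. The root of the common dispersion was 0.255 with tissue alone and 0.118 with fish as a term. No 2 libraries of a tissue were duplicates, with a chi-square per degree of freedom of 26.3 or more.

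Alternatives were RLE factors, DESeq2 1.42.0, limma-voom (limma 3.58.1), no filter, a filter of 1 CPM in 6 libraries, fish as a term, the compared tissues alone, and leaving out each fish and each library. For the read ratios they were 1 read added to each count, permutation without the replicate block, and leaving out each fish. All *HOXDA* genes were named, and for each the 3 gene models with the highest Pearson r over the libraries. The genes, lists and tests were chosen with earlier results of these data known. The test was tried on simulated counts drawn without a fish effect, which cannot show how it behaves on paired libraries.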

Additional observations from a re-analysis of the deposited data

How the results depend on the processing

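Of 60 pairs of a gene and a comparison, 17 passed, 7 of them in every alternative, and none of the 17 turned sign. The numbers of *HOXDA* genes called moved in several comparisons. With fish as a term in the model (the replicate block) they were 1 for DS3 against DS2 and for Pter against DS3 (from 0 in both), 3 for DSL against DS3 (from 1) and 5 for DSL against DS1 and for posterior against anterior spines (from 3), 3 for DSL against Pter (from 2) and 4 for DF against DSL (from 3), and the block took away no call. DESeq2 gave 1, 1, 2 and 5 for DS3 against DS2, Pter against DS3, DSL against DS3 and DSL against DS1, and 3, 4 and 4 for DSL against Pter, DF against DSL and posterior against anterior spines. Of all genes, DESeq2 called 1.25% for DSL against DS3, 0.719% for DSL against DS1 and 0.53% for posterior against anterior spines. It called 13.3% for DSL against Pter and 10.7% for DF against DSL. limma-voom gave 3 for DSL against Pter and 4 for DF against DSL, where it called 8.95% and 8.15% of all genes. With DSL and Pter fitted alone 1 gene passed in place of 2. When 1 fish or library was left out, the number was 0 to 1 for DSL against DS3 and for Pter against DS3, 1 to 3 for DSL against DS1, posterior against anterior spines and DF against DSL, and 0 to 3 for DSL against Pter. The fits without 1 fish or library have fewer libraries and, like the main fit, tissue as the only term. Without 1 fish the exact permutation of read ratios has a smallest adjusted p of 0.0556, so those ratios cannot pass: they ran from -6.47 to -5.83 for *HOXD9A* to *HOXD9B*, -2.53 to -1.49 for *HOXD11A* to *HOXD11B*, -1.78 to -1.51 for *HOXD4A* to *HOXD4B* and 3.44 to 4.00 for *HOXD11A* to *HOXD9A*. Permuted without the replicate block, their adjusted p were 0.00289 to 0.0173. With 1 read in place of 0.5 added to each count, the changes over 3 fish were -5.75 for *HOXD9A* to *HOXD9B* and -2.17 for *HOXD11A* to *HOXD11B*. They were -1.63 for *HOXD4A* to *HOXD4B* and 3.34 for *HOXD11A* to *HOXD9A*.

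Signs turned for 11 pairs that did not pass, all but 1 gene of them only when a library or fish was left out. *HOXD12A* ran from -0.749 to 1.92 for DS3 against DS2, -0.27 to 2.15 for DSL against DS3, -0.215 to 2.71 for Pter against DS3, -1.20 to 0.488 for DSL against Pter and -0.266 to 0.264 for AF against DF, and for the last it was also -0.0139 under limma-voom and -0.0207 with the replicate block. *HOXD4A* ran from -0.128 to 0.00983 for DSL against DS3 and -0.0298 to 0.226 for DSL against Pter, and *HOXD3A* from -0.0587 to 0.389 for DSL against Pter. *HOXD9A* ran from -0.49 to 0.0312 and *HOXD10A* from -0.219 to 0.585 for Pter against DS3, and *HOXD10A* from -0.194 to 0.0068 for AF against DF. Few reads limit *HOXD12A* outside the fins and *HOXD11A* in DS1 and DS2. RLE factors moved no *HOXDA* difference by more than 0.0351. Over all genes, the numbers called by DESeq2 were 6, 7, 265, 152, 112, 1076 and 76 for DS2 against DS1, DS3 against DS2, DSL against DS3, DSL against DS1, posterior against anterior spines, Pter against DS3 and AF against DF, where edgeR called 1, 3, 17, 44, 19, 657 and 46. With the compared tissues alone they were 9 for DSL against DS3, 15 for DSL against DS1, 140 for Pter against DS3, 933 for DSL against Pter and 8 for AF against DF. Without 1 fish or library they ran from 1 to 14 for DSL against DS3, 14 to 35 for DSL against DS1, 78 to 713 for Pter against DS3, 320 to 2329 for DSL against Pter, 241 to 1360 for DF against DSL, 9 to 36 for AF against DF and 3201 to 6263 for fins against spines. The cause of these moves was not tested.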
